A study of Mus musculus with 24 samples.

Results

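Toll-like receptors recognise conserved parts of microbes, and 10 genes of this system were described here in microglia-rich cells of the adult mouse brain: the receptors Tlr1, Tlr2, Tlr3, Tlr4, Tlr6, Tlr7, Tlr9 and Tlr13, and the lipopolysaccharide (LPS) co-receptors Cd14 and Ly96. The genes were chosen by name. They are 10 of the 55487 gene identifiers in the deposited table, and all 10 of 10 passed the low-count filter that left 17139 genes for testing. The cells came from male offspring 8 to 10 weeks old, of dams with maternal immune activation (MIA) or of control dams, and the agent given to the dams and the litter of each animal are not given in the sources used here. Offspring received saline or LPS at 4500 endotoxin units per gram by intraperitoneal injection, and 18 h later frontal cortex and striatum were taken, dissociated with papain and passed over CD11b magnetic beads. The 8 groups, formed by prenatal history, region and treatment, all share this isolation, which takes every CD11b-positive cell and not microglia alone. Each group had 3 libraries. MIA striatum LPS replicate 3 carries an exclusion mark in its title and was set aside, so that group had 2 and 23 libraries were used.

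Library totals ran from 19453300 to 29480500 expected counts. The 7 microglial markers (P2ry12, Tmem119, Cx3cr1, Csf1r, Aif1, Sall1 and Siglech) summed to between 15473 and 39255 CPM (counts scaled to a common library total after adjustment by the trimmed mean of M values) and none was at 0 in any library used, so markers of the labelled cell type were present throughout. Markers of other CD11b-positive blood cells were present too. The 8 blood monocyte markers summed to 11.9 to 90.0 CPM in the 12 saline libraries (median 24.3) and to 90.2 to 313 CPM in the 11 LPS libraries (median 145). The 10 neutrophil markers summed to 11.2 to 676 CPM with saline (median 51.2) and 203 to 717 CPM with LPS (median 467). The monocyte and neutrophil sums were therefore higher with LPS at the median, and the microglial sum was lower, at 15473 to 24785 CPM with LPS against 27101 to 39255 CPM with saline. Blood monocytes and neutrophils also use several of the receptors described below, and the part of these cells in each result was not tested. In control striatum, marker sums of other cells were lower with LPS without overlap. The oligodendrocyte sum was 395 to 969 against 1121 to 5330 CPM. The endothelial and pericyte sum was 645 to 1062 against 1133 to 2409 CPM, and the neuron sum 19.5 to 24.9 against 42.8 to 95.4 CPM. These sums overlapped in the other groups, and their part was not tested either. In bulk libraries, fewer cells of a type and less RNA per cell cannot be told apart.

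As background, LPS from the outer membrane of gram-negative bacteria is passed by the binding protein Lbp to CD14, which hands it to a complex of TLR4 and MD-2, the product of Ly96. TLR2 pairs with TLR1 or TLR6 at the cell surface to sense bacterial lipoproteins. TLR3, TLR7, TLR9 and TLR13 sit in endosomes, where they bind double-stranded RNA, single-stranded RNA, DNA with CpG motifs and a stretch of bacterial ribosomal RNA. All of them but TLR3 signal through the adaptor MyD88, TLR3 signals through TRIF (Ticam1), and TLR4 uses both. Microglia are the main brain cells that carry these receptors, and TLR4 is the route by which LPS acts on macrophages.

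The stretch just upstream of a gene is where transcription factors of this pathway bind. Promoters of members with an LPS call are therefore shown for comparison with those of Tlr6 and Tlr3, which had none. RefSeq promoter entries of 6 of the 10 members were used here (Tlr1, Tlr2, Tlr3, Tlr6, Tlr9 and Tlr13). Each line gives the 250 bases before the start that lies farthest upstream, 5′ to 3′ on the strand of the gene, in build GRCm38.p6. Capitals mark matches, on either strand, to 3 motifs: the kappaB consensus of NF-kappaB, the PU.1 core GAGGAA, and the AP-1 element TGANTCA.
Tlr2, chr3:83841609-83841858, minus strand: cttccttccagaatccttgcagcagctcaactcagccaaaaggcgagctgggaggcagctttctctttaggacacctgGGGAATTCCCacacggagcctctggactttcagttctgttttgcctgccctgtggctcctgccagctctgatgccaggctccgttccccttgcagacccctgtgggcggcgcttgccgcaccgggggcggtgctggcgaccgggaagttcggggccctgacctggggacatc
Tlr1, chr5:64933559-64933808, minus strand: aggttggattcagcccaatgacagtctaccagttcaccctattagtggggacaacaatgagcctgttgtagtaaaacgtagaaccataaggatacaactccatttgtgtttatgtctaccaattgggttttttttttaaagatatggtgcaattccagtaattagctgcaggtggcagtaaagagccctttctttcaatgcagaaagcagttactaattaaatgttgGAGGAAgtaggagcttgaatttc
Tlr6, chr5:64960049-64960298, minus strand: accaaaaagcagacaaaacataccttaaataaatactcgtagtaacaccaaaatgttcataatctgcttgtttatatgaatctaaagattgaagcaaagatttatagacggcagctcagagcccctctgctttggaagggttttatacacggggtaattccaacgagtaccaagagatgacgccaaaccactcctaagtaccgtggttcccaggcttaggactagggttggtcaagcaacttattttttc
Tlr9, chr9:106222348-106222597, plus strand: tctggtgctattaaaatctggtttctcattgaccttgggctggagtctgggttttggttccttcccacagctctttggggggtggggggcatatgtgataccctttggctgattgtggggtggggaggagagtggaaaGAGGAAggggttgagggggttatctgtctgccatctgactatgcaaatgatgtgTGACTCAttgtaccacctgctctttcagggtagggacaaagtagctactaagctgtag
Tlr3, chr8:45410381-45410630, minus strand: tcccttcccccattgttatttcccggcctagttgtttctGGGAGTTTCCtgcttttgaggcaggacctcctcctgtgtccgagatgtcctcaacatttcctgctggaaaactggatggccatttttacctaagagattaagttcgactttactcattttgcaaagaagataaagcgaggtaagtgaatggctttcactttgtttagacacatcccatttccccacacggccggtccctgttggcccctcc
The kappaB consensus was matched in Tlr2, 172 bases before the start, and in Tlr3, 211 bases before it. Over all 32851 promoters in the table, 5% held such a match. The PU.1 core, bound by a factor that macrophage lineages require, was found in Tlr1 (23 bases before the start) and Tlr9 (112 bases), and in Tlr13 (83 bases; chrX:106143025-106143274, not printed), against 23.3% of all promoters. The AP-1 element was found in Tlr9, 58 bases before the start, against 6.75% of all promoters. Tlr6 held none of the 3 motifs in this window. Tlr1 and Tlr6 each had another start downstream, whose 250 bases held none of the 3 motifs. The PU.1 match of Tlr1 is therefore at its farthest upstream start only. A match is a description of the letters and not a measured binding site, and the kappaB consensus was present both in a gene with an LPS call (Tlr2) and in one without (Tlr3).

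In saline the members differed widely in level. Per kilobase of exon in control cortex, Cd14 was the most abundant at 527 ± 70.5 CPM per kb (SD, n = 3), followed by Tlr7 at 112 ± 8.11, Tlr2 at 112 ± 5.41 and Tlr13 at 108 ± 20.6 CPM per kb. These 3 receptors did not differ beyond their spread. A lower tier held Ly96 at 29.2 ± 3.63, Tlr4 at 28.6 ± 3.91 and Tlr3 at 22.9 ± 5.02 CPM per kb, again within their spread. Tlr6 (17.6 ± 2.01) and Tlr1 (16.0 ± 0.637) came next, and Tlr9 was lowest at 5.59 ± 2.98 CPM per kb. Thus the transcript of the LPS receptor itself was far less abundant per kb than that of its co-receptor Cd14, and on a par with that of its partner Ly96. Exon lengths come from GENCODE M21, whose build may differ from that of the counts.

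LPS moved 4 of the 10 members in the same direction in each of the 4 prenatal and regional groups (edgeR quasi-likelihood test, called at a Benjamini-Hochberg adjusted p under 0.05). Cd14, Tlr2 and Tlr1 rose 1.92- to 3.54-fold, and Ly96 fell. Tlr9 had a lower mean after LPS in every group and was called by edgeR only in the mean of the 4 groups. Tlr3, Tlr4, Tlr6, Tlr7 and Tlr13 were called in none. The counts of 3 higher and 1 lower stand beside all genes called higher and lower of 10.9% and 7.25% in control cortex, 12.7% and 8.15% in control striatum, 7.05% and 4.85% in cortex of MIA offspring, and 6.93% and 3.31% in their striatum. For the mean of the 4 LPS effects, 3 members were higher and 2 lower, against 20.7% and 16.9% of all genes. The median log2 fold change of the 10 members was 0.05, 0.18, 0.18 and 0.38 in these groups, against 0.04, -0.02, 0.01 and -0.06 over all genes tested.

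**Figure D1:**
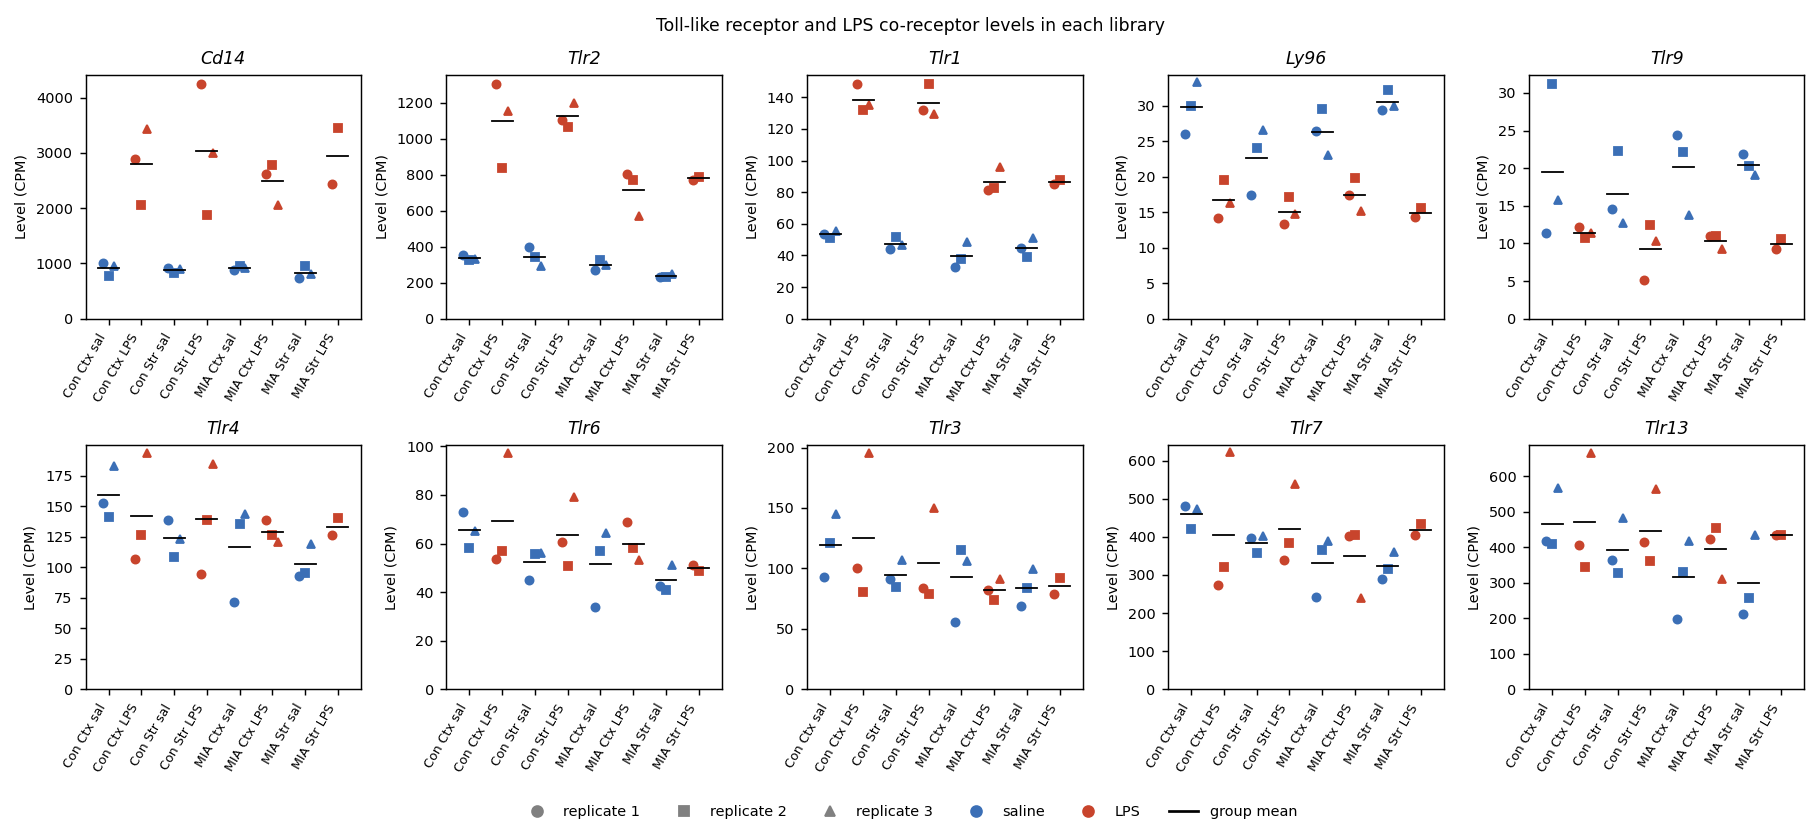
Level of each gene in CPM (vertical axis, from 0) in the 23 libraries, by group (Con, control; Ctx, cortex; Str, striatum; sal, saline). Symbols are replicates, blue is saline, red is LPS and bars are group means. For Cd14, Tlr2 and Tlr1 every LPS library lies above every saline library, and the LPS libraries of MIA offspring lie below those of controls for Tlr2 and Tlr1.

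Cd14 (ENSMUSG00000051439.7) encodes the protein that extracts LPS from its carrier and delivers it to TLR4. In control cortex its 3 saline libraries held 1009, 775 and 953 CPM and its LPS libraries 2893, 2061 and 3439 CPM. In control striatum the values were 924, 819 and 899 CPM with saline against 4244, 1877 and 3007 CPM with LPS. In MIA cortex they were 890.3, 963 and 923 CPM against 2618, 2783 and 2062 CPM, and in MIA striatum 729.7, 959 and 811 CPM against 2446 and 3453 CPM. The lowest LPS library, at 1877 CPM, stood above the highest saline library, at 1009 CPM, so the treatments did not overlap in any group. The log2 fold change was 1.62 ± 0.24 (SE) in control cortex, 1.79 ± 0.24 in control striatum, 1.43 ± 0.23 in cortex of MIA offspring and 1.82 ± 0.25 in their striatum, with edgeR adjusted p-values between 1.62e-05 and 0.000302. Averaged over the groups Cd14 rose 3.17-fold (log2 1.66 ± 0.12, adjusted p = 7.69e-10). The 4 saline means lay between 833 and 926 CPM and the 4 LPS means between 2488 and 3043 CPM, and neighbours in the order of means overlapped within each treatment.

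Ly96 (ENSMUSG00000025779.10) encodes MD-2, the small secreted protein in whose pocket LPS binds before TLR4 dimerises. Its saline libraries held 26.0, 29.9 and 33.4 CPM in control cortex, 17.4, 24.01 and 26.5 in control striatum, 26.5, 29.6 and 23.03 in cortex of MIA offspring and 29.4, 32.2 and 29.9 in their striatum. Its LPS libraries held 14.2, 19.5 and 16.3 CPM in control cortex and 13.4, 17.1 and 14.7 in control striatum, 17.4, 19.8 and 15.3 in cortex of MIA offspring and 14.3 and 15.5 in their striatum. Within each group every LPS library lay below every saline library, though in control striatum saline replicate 1 (17.40 CPM) was barely above LPS replicate 2 (17.14 CPM). The log2 fold change was -0.84 ± 0.18 in control cortex (edgeR adjusted p = 0.00227) and -1.03 ± 0.21 in MIA striatum (0.00217). It was -0.59 ± 0.18 in control striatum (0.0237) and -0.59 ± 0.18 in MIA cortex (0.0343). Both of these calls were lost without a low-count filter (adjusted p of 0.0619 and 0.119) and when only the groups compared were fitted (0.115 and 0.097). The control striatum call also needed each of 4 libraries: leaving out LPS replicate 1 or 3 gave an adjusted p of 0.0857 or 0.0632, and leaving out saline replicate 2 or 3 gave 0.0788 or 0.108. The MIA cortex call was lost, at adjusted p-values from 0.0511 to 0.159, without MIA cortex LPS replicate 1 or 3, MIA cortex saline replicate 1 or 2, MIA striatum LPS replicate 1 or MIA striatum saline replicate 2, and with the set-aside library added back (0.0728). In the mean of the 4 groups Ly96 fell to 0.590 of its saline level (log2 -0.76 ± 0.09, adjusted p = 1.3e-06), a call that held in all 29 alternatives. None of the 29 had a separate term for each same-numbered cortex and striatum pair within a prenatal group and treatment. Both LPS partners of TLR4 thus moved, in opposite directions.

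Tlr4 (ENSMUSG00000039005.13), the signalling receptor for LPS, was not called in any group. In control cortex its saline libraries held 153, 141 and 183 CPM and its LPS libraries 107, 126 and 194 CPM. In control striatum they held 139, 109 and 123 CPM against 94.4, 139 and 184 CPM. In MIA cortex they held 71.3, 135 and 143 CPM against 139, 126 and 121 CPM, and in MIA striatum 92.6, 95.2 and 119 CPM against 126 and 140.0 CPM. Saline and LPS libraries overlapped in all groups but MIA striatum, where the 2 LPS libraries were above the 3 saline ones. In that comparison 44.4% of all genes had no overlap, in either direction. The mean log2 fold change was 0.13 ± 0.13 (95% interval -0.14 to 0.40, adjusted p = 0.471), so the interval of the mean excludes a 2-fold change in either direction but the test does not show that Tlr4 stayed the same.

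Tlr2 (ENSMUSG00000027995.10) encodes the common chain of the lipoprotein receptors. Its 3 saline libraries held 356, 326 and 332 CPM in control cortex and 396, 342 and 291 CPM in control striatum, against 1302, 835 and 1153 CPM and 1105, 1067 and 1198 CPM with LPS. In MIA cortex it was at 269, 327 and 298 CPM with saline and 803, 768 and 571 CPM with LPS, and in MIA striatum at 232, 230.4 and 248 CPM against 771 and 789 CPM. Every LPS library was above every saline library of any group. Its log2 fold change was 1.70 ± 0.16 in control cortex, 1.71 ± 0.16 in control striatum, 1.26 ± 0.16 in cortex of MIA offspring and 1.72 ± 0.17 in their striatum (edgeR adjusted p-values from 2.82e-07 to 1.75e-05). The mean rise was 3.03-fold (log2 1.60 ± 0.08, adjusted p = 5.03e-12), the smallest adjusted p among the members.

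Tlr1 (ENSMUSG00000044827.10) and Tlr6 (ENSMUSG00000051498.7) encode the 2 alternative partners of TLR2 for triacylated and diacylated lipoproteins, and only the first was called. Tlr1 held 53.7, 51.1 and 55.4 CPM in control cortex and 43.9, 51.4 and 46.5 CPM in control striatum with saline, and 148, 132 and 135 CPM and 132, 149 and 129.5 CPM with LPS. In MIA cortex it held 32.8, 37.9 and 48.5 CPM against 81.1, 82.9 and 96.1 CPM, and in MIA striatum 44.9, 38.9 and 51.0 CPM against 84.9 and 87.8 CPM. Its saline values spread more in MIA cortex (39.7 ± 8.02 CPM, SD, n = 3) than in control cortex (53.4 ± 2.13 CPM). Saline and LPS were apart everywhere. The log2 fold change was 1.37 ± 0.14, 1.53 ± 0.14, 1.12 ± 0.14 and 0.94 ± 0.15 in control cortex, control striatum, MIA cortex and MIA striatum (edgeR adjusted p-values from 2.31e-07 to 0.000307). The mean rise was 2.37-fold (log2 1.24 ± 0.07, adjusted p = 3.14e-11).

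Tlr6 ranged from 33.7 to 73.1 CPM over the saline libraries and from 48.8 to 97.4 CPM over the LPS libraries, with overlap in all groups. Its mean log2 fold change was 0.18 ± 0.12 (95% interval -0.07 to 0.43, edgeR adjusted p = 0.256). Tlr1 and Tlr6 are neighbours on chromosome 5 and close in sequence. Their expected counts were not whole numbers in 23 of 24 libraries, while those of the other 8 members were whole in all 24, as happens where the counting shares reads among similar genes, so the split of reads between Tlr1 and Tlr6 may be an estimate. The sum of both does not depend on a split between them. With LPS it went from 119 ± 8.90 to 208 ± 22.2 CPM in control cortex and from 99.5 ± 9.37 to 200.2 ± 8.14 CPM in control striatum (SD, n = 3), from 91.3 ± 23.3 to 147 ± 4.92 CPM in MIA cortex and from 89.8 ± 11.5 to 136 ± 0.343 CPM in MIA striatum (n = 2 with LPS). Tlr1 made up 40.0% to 51.4% of the sum in saline libraries and 54.1% to 74.6% in LPS libraries, with no overlap.

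**Figure D2:**
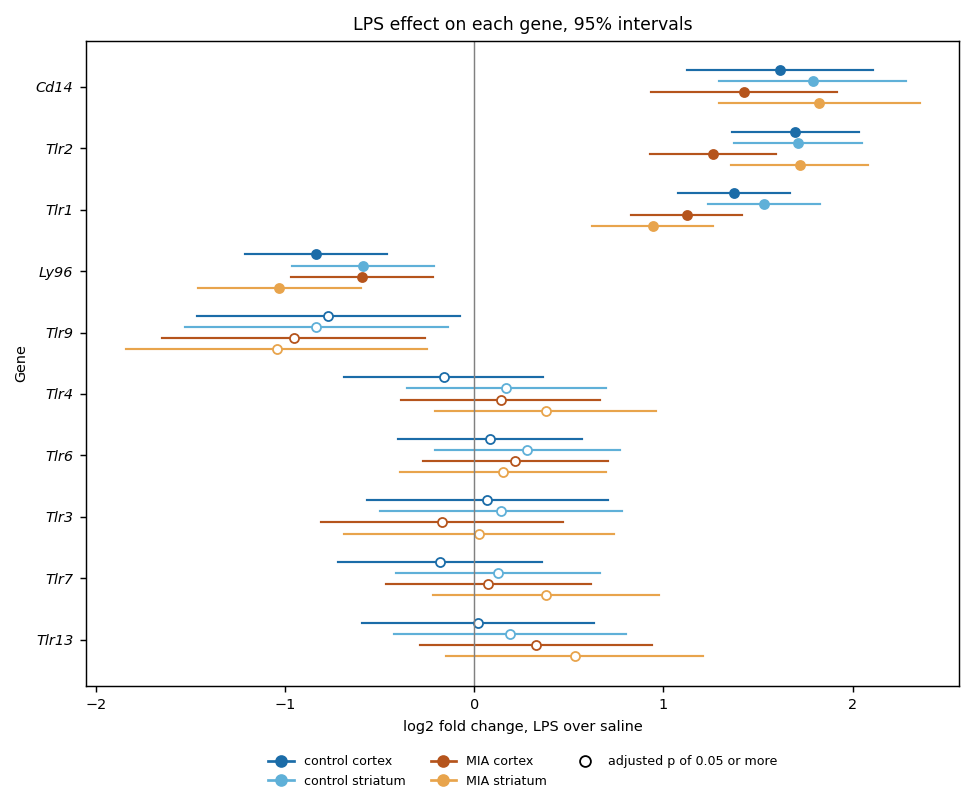
log2 fold change, LPS over saline (horizontal axis), of each gene in the 4 prenatal and regional groups, with 95% intervals from the edgeR fit. Filled points have an adjusted p under 0.05: Cd14, Tlr2 and Tlr1 to the right of 0 and Ly96 to the left in all 4 groups.

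Of the endosomal receptors only Tlr9 was called by edgeR, and only in the mean, while DESeq2 called it in 3 single groups as well. Tlr9 (ENSMUSG00000045322.10), the CpG DNA receptor, held 11.5, 31.1 and 15.7 CPM with saline and 12.2, 10.7 and 11.3 CPM with LPS in control cortex. It held 14.5, 22.3 and 12.7 against 5.09, 12.4 and 10.3 CPM in control striatum. In MIA cortex it held 24.4, 22.2 and 13.7 CPM against 10.98, 10.95 and 9.21 CPM, and in MIA striatum 21.9, 20.3 and 19.2 CPM against 9.31 and 10.5 CPM. Saline libraries scattered widely in 3 of the groups, and only in control cortex did the treatments overlap. Its log2 fold change was -0.77 ± 0.33, -0.83 ± 0.33, -0.95 ± 0.33 and -1.04 ± 0.38 in control cortex, control striatum, MIA cortex and MIA striatum, with edgeR adjusted p-values of 0.125, 0.0854, 0.0713 and 0.0947. Averaged, Tlr9 fell to 0.536 of its saline level (log2 -0.90 ± 0.17, adjusted p = 0.000278), and this call held in all 29 alternatives. None of the 29 had a separate term for each same-numbered cortex and striatum pair within a prenatal group and treatment. They therefore do not show what cortex and striatum libraries sharing an animal would change. In single groups the call depended on the setting. DESeq2 called Tlr9 in control striatum (-0.87, adjusted p = 0.0402), MIA cortex (-0.97, 0.0297) and MIA striatum (-1.09, 0.0322). In MIA striatum edgeR also called it when only the groups compared were fitted (-1.05, 0.0146) and with the set-aside library added back (-1.36, 0.0191). With all groups fitted and 1 library left out, edgeR called it in control cortex without its saline replicate 1 (-1.04, 0.0446), and in control striatum without its LPS replicate 2 (-1.10, 0.0463) or without control cortex saline replicate 2 (0.0451). It was called in MIA cortex without its saline replicate 3 (-1.13, 0.0487), control cortex saline replicate 2 (0.0353) or control striatum LPS replicate 1 (0.0388), and in MIA striatum without control cortex saline replicate 2 (0.0494). All 4 saline group means (16.5 to 20.5 CPM) were above all 4 LPS means (9.27 to 11.4 CPM).

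Tlr3, the receptor for double-stranded RNA, ranged from 55.8 to 145 CPM with saline and from 73.8 to 195 CPM with LPS. Its mean log2 fold change was 0.02 ± 0.16 (95% interval -0.31 to 0.34, edgeR adjusted p = 0.967). Tlr7, a sensor of single-stranded RNA encoded on the X chromosome, ranged from 242 to 482 CPM with saline and from 240.5 to 622 CPM with LPS, with a mean log2 fold change of 0.10 ± 0.13 (-0.18 to 0.38, adjusted p = 0.609). Tlr13, also on the X chromosome and a sensor of bacterial ribosomal RNA that humans lack, ranged from 198 to 568 CPM with saline and 309.9 to 665 CPM with LPS. Its mean log2 fold change was 0.27 ± 0.15 (-0.05 to 0.58, adjusted p = 0.182). In MIA striatum the 2 LPS libraries of Tlr4, Tlr7 and Tlr13 lay above the 3 saline libraries, as part of 8 of 10 members whose treatments did not overlap there, against 44.4% of all genes, with log2 fold changes of 0.38 ± 0.28, 0.38 ± 0.29 and 0.53 ± 0.33 and adjusted p-values of 0.488, 0.502 and 0.384. In the same comparison the 6 markers of border macrophages, which also carry CD11b, summed to 833 to 1145 CPM with LPS against 303 to 448 CPM with saline, and 4 of 6 were called higher (median log2 fold change 1.43). The part of these cells in the receptor levels was not tested.

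The 5 receptors without an LPS call varied together in several groups but not in all. In MIA cortex LPS the highest library was replicate 1 for 2 genes, replicate 2 for 2 and replicate 3 for 1. In control cortex saline the highest was replicate 1 for 2 genes and replicate 3 for 3. In control cortex LPS, replicate 3 was the highest of the group for all 5 of Tlr3, Tlr4, Tlr6, Tlr7 and Tlr13, at a geometric mean of 1.74 times the group median. In control striatum LPS, replicate 3 was again the highest for all 5 (1.43 times), and in MIA striatum saline replicate 3 was too (1.29 times). In MIA cortex saline, replicate 1 was the lowest for all 5, at 0.579 of the group median. That library also had the highest neutrophil marker sum of the saline libraries, 676 CPM against 156 and 219 CPM in its group, and the lowest microglial marker sum, 27101 CPM against 37073 and 32892 CPM. Replicate 3, where highest for all 5, also had the highest microglial sum of its group. In control cortex LPS it was 24785 CPM against 21639 and 17635 CPM. In control striatum LPS it was 24558 CPM against 15473 and 16875 CPM, and in MIA striatum saline 31980 CPM against 30847 and 29947 CPM. The part of these marker differences in the receptor levels was not tested. Over the 23 libraries, the Pearson r of log2 CPM between pairs of these 5 genes ran from 0.703 (Tlr3 and Tlr7) to 0.85 (Tlr4 and Tlr7). The points share library and treatment, and r is given as a description. The r of a typical pair of genes was not computed, so these values are not shown to be particular to the receptors. The genes with an LPS call formed another set, with r of 0.947 between Tlr1 and Tlr2, 0.936 between Cd14 and Tlr2, 0.793 between Ly96 and Tlr9, and -0.886 between Ly96 and Tlr2. These values of r include the difference between saline and LPS libraries.

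**Figure D3:**
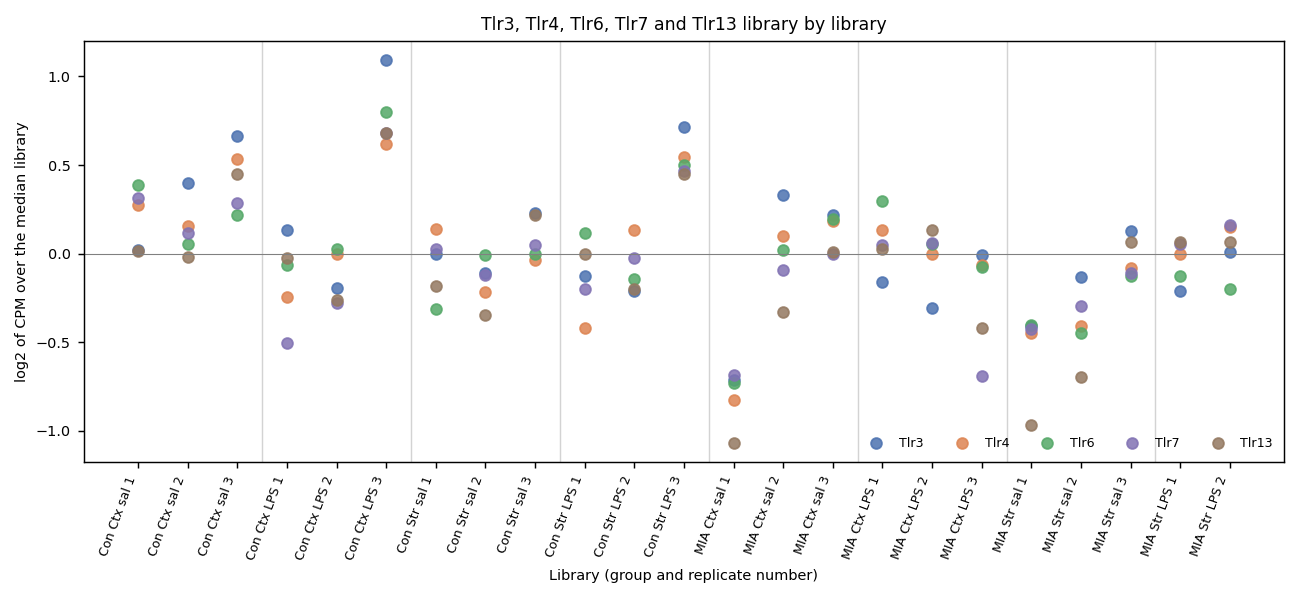
Level of Tlr3, Tlr4, Tlr6, Tlr7 and Tlr13 in each of the 23 libraries as log2 of CPM over the gene's median library (vertical axis). Points of a library share a position on the horizontal axis and grey lines separate groups. The 5 genes lie high together in control cortex LPS replicate 3 and control striatum LPS replicate 3, and low together in MIA cortex saline replicate 1.

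Genes whose levels followed each member most closely over the 23 libraries were taken from the 8117 tested genes that averaged 10 CPM or more, by Pearson r of log2 CPM. For Cd14 they were Ms4a6d (0.981) and Tars2 (0.973). For Tlr2 they were G3bp1 (0.977), Myd88 (0.974) and Gart (0.974), and for Tlr1 Rrs1 (0.968) and Shmt2 (0.965). Ly96 was followed by Cerk (0.933), Mettl9 (0.923) and Sall1 (0.92), one of the 7 microglial markers, and Tlr9 by Sparc (0.888), Fmnl3 (0.886) and Ttc28 (0.886). Among the receptors with no LPS call, Tmem168 was among the 3 closest genes for Tlr4 (0.874), Tlr6 (0.889) and Tlr13 (0.898). The other closest genes were Ythdf3 (0.892) and Ppp1r3b (0.85) for Tlr4, Ostm1 (0.916) and Fuca2 (0.874) for Tlr6, and Lifr (0.897) and Nipa2 (0.891) for Tlr13. For Tlr7 they were Rassf5 (0.917), Adam10 (0.885) and B3galnt1 (0.865), and for Tlr3 Lmf2 (0.847), Ankle2 (0.845) and Rtn3 (0.837). All these r include the difference between saline and LPS libraries. In the mean LPS effect edgeR called 6443 of the 17139 genes, so a high r with a called member is not shown to be particular to a gene.

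The rest of the pathway was read from 3 lists in the mean of the 4 LPS effects, where 20.7% of all genes were called higher and 16.9% lower. Of the 4 other toll-like receptors, none rose and 2 fell: Tlr12, a receptor for parasite profilin (log2 -1.01 ± 0.12, edgeR adjusted p = 7.61e-07), and Tlr5, the flagellin receptor (-0.49 ± 0.15, 0.0121). Tlr8 (0.01 ± 0.21) and Tlr11 (0.71 ± 0.56) were not called. No toll-like receptor other than Tlr1 and Tlr2 was therefore called higher among the 12 tested, and Tlr5, Tlr9 and Tlr12 were called lower.

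Of 19 genes for LPS handling and receptor transport, 6 rose and 7 fell, with a median of -0.14. Aoah, the enzyme that inactivates LPS by removing its acyl chains, rose most (log2 1.90 ± 0.15), followed among the 8 with the smallest adjusted p by Casp4, the cytosolic LPS sensor (1.19 ± 0.13), Slc15a3, an endolysosomal peptide transporter (1.16 ± 0.20), Itgb2, the integrin chain that pairs with CD11b (0.63 ± 0.09), and Hsp90b1, the chaperone that folds most toll-like receptors (0.62 ± 0.10). Cd36, a scavenger receptor that assists TLR2 (-1.34 ± 0.18), Cd180, a TLR4 relative (-1.30 ± 0.11), and Ly86, which encodes the MD-2 relative MD-1 bound to CD180 (-0.53 ± 0.08), fell. Ly96 and Ly86, the genes of these 2 related proteins, both fell, as did Cd180, while Tlr4 was not called.

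Of 21 adaptors and kinases, 9 rose and 2 fell, with a median of 0.22 against -0.04 over all genes. Myd88, the adaptor shared by most members, rose 1.77-fold (log2 0.82 ± 0.06, edgeR adjusted p = 1.79e-09). Irf7, which drives type I interferon genes downstream of TLR7 and TLR9, rose by 2.94 ± 0.29 on the log2 scale, and Irak3, an inhibitor of MyD88 signalling, by 1.61 ± 0.16. Pik3ap1 (0.70 ± 0.09), Ticam2, the adaptor that links TLR4 to TRIF (0.52 ± 0.08), and Irf3 (0.35 ± 0.05) rose less, and Irf5 fell (-0.35 ± 0.07). Ikbke, a kinase that activates IRF3 and IRF7, stood between 0 and 0.604 CPM in the saline libraries and between 4.00 and 18.6 CPM in the LPS libraries, and its fitted log2 fold change of 5.87 ± 0.47 depends on the prior count. In the single groups 5, 7, 7 and 6 adaptors and kinases were higher and none lower, in the order control cortex, control striatum, MIA cortex and MIA striatum. In the same order, 10.9%, 12.7%, 7.05% and 6.93% of all genes were called higher. Called lower were 7.25%, 8.15%, 4.85% and 3.31% of all genes.

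**Figure D4:**
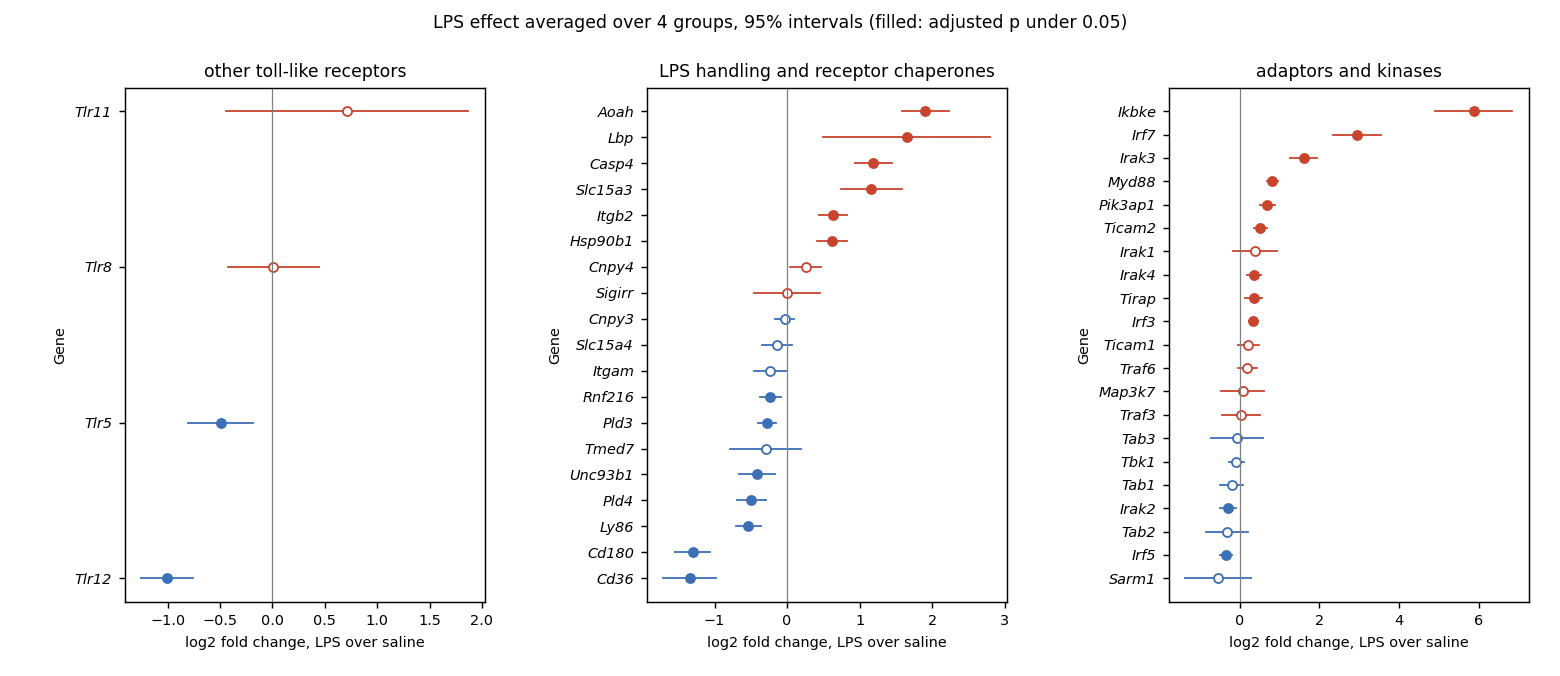
log2 fold change, LPS over saline, averaged over the 4 groups (horizontal axis) for the genes of 3 pathway lists, with 95% intervals. Filled points have an adjusted p under 0.05, red is above 0 and blue below: 0 of 4 other toll-like receptors, 6 of 19 LPS handling and transport genes and 9 of 21 adaptors and kinases rose.

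No member differed by the test between MIA and control offspring, at rest or after LPS. With edgeR, 0 of 10 members were called in cortex saline, striatum saline, cortex LPS and striatum LPS, where 0%, 0%, 0% and 0.146% of all genes were called. At an unadjusted p under 0.05 the counts were 1, 2, 2 and 2 members, against 921, 842, 837 and 1556 of the 17139 genes. DESeq2 called 0, 0, 1 and 1 member, in both cases Tlr1 after LPS. As the litters are not given, an effect of MIA and one of litter cannot be told apart.

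Tlr1 and Tlr2 had the widest gaps after LPS. In cortex the Tlr1 libraries of MIA offspring (81.1 to 96.1 CPM) lay below those of controls (132 to 148 CPM), and in striatum the 2 MIA libraries (84.9 and 87.8 CPM) lay below the 3 controls (129.5 to 149 CPM). The log2 difference was -0.67 ± 0.14 in cortex (95% interval -0.96 to -0.38, edgeR adjusted p = 0.128) and -0.66 ± 0.16 in striatum (-0.99 to -0.33, 0.0952). With DESeq2 the adjusted p was 0.0122 and 0.00852, and in edgeR without MIA cortex LPS replicate 3 the cortex difference was called (-0.74, 0.0368). For Tlr2 the LPS libraries held 571 to 803 CPM in MIA cortex against 835 to 1302 CPM in controls, and 771 to 789 CPM in MIA striatum against 1067 to 1198 CPM. The log2 difference was -0.62 ± 0.16 (-0.95 to -0.29, adjusted p = 0.291) and -0.53 ± 0.18 (-0.90 to -0.16, 0.337). The order of group means was the same for both genes: both control LPS groups, then both MIA LPS groups, then the saline groups, with no overlap at either step. The share of all genes with this order was not computed, so it is not shown to be particular to Tlr1 and Tlr2. The blood monocyte markers also differed after LPS in cortex, with sums of 127 to 153 CPM in MIA offspring against 186 to 313 CPM in controls and no overlap. In striatum the sums overlapped, at 90.2 to 145 CPM in MIA offspring against 103 to 242 CPM. Of the 8 markers, 0 were called by edgeR in either region (2 in cortex and 1 in striatum at an unadjusted p under 0.05). The 6 border macrophage markers were higher in MIA striatum after LPS, with sums of 833 to 1145 CPM against 330 to 531 CPM in controls. Of these, 0 were called by edgeR and 6 had an unadjusted p under 0.05 (median log2 difference 1.25). In cortex their sums overlapped (492 to 1272 against 411 to 954 CPM). The part of monocytes and border macrophages in the Tlr1 and Tlr2 differences was not tested.

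The members whose MIA and control libraries did not overlap were few, and their share is to be read against that of all genes. In cortex after LPS they were Tlr1 and Tlr2, 2 of 10 against 7.85% of all genes, and in striatum after LPS the same 2 of 10 against 22.4%. In cortex with saline they were Tlr1 (-0.42 ± 0.14, edgeR adjusted p = 0.906) and Tlr7 (-0.47 ± 0.26, 0.949), both lower in MIA, 2 of 10 against 13.1%. In striatum with saline they were Tlr2, lower in MIA (-0.53 ± 0.16, 0.918), and Ly96, higher in MIA (0.43 ± 0.18, 0.918), 2 of 10 against 13.3%. Cd14, by contrast, had intervals on both sides of 0 in all 4 comparisons, with log2 differences between -0.17 ± 0.23 and 0.02 ± 0.23. Tlr4 differed by -0.45 ± 0.25 in cortex saline, -0.27 ± 0.25 in striatum saline, -0.15 ± 0.25 in cortex LPS and -0.06 ± 0.28 in striatum LPS, with every interval across 0. The remaining members are in the plot of MIA effects.

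**Figure D5:**
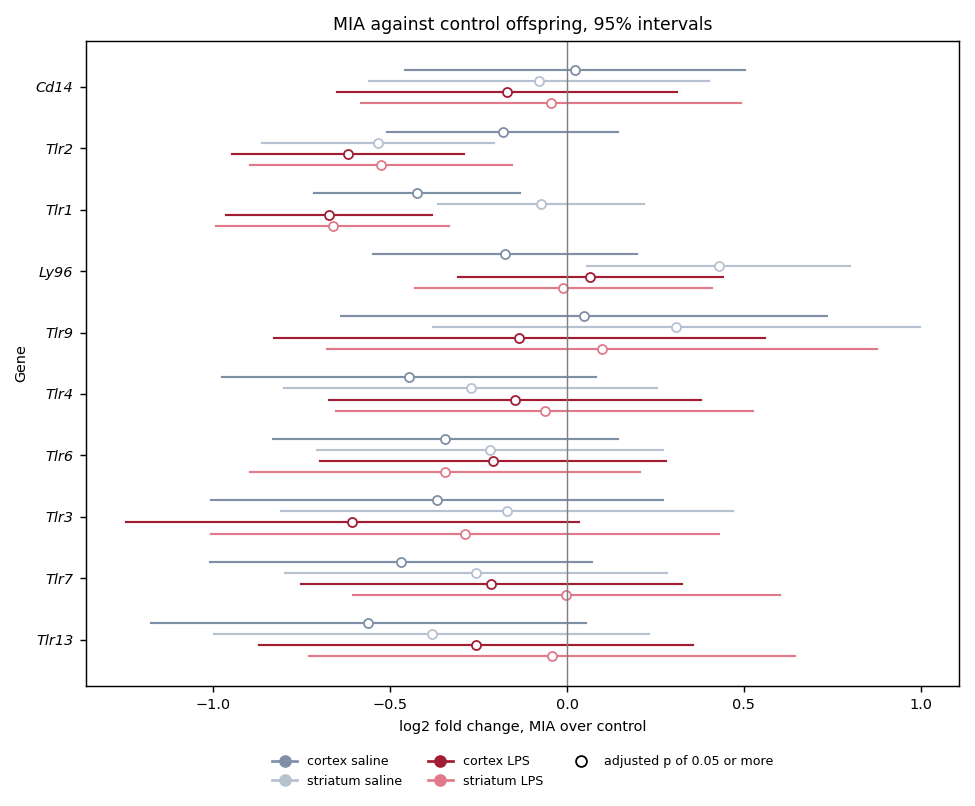
log2 fold change, MIA over control offspring (horizontal axis), of each gene in cortex and striatum with saline or LPS, with 95% intervals. Open points have an adjusted p of 0.05 or more, which holds for all 40 points; the intervals of Tlr1 and Tlr2 after LPS lie below 0 in both regions.

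Whether the LPS response itself differed with prenatal history was tested as an interaction, and 0 members were called in cortex, in striatum or in the mean of both regions (edgeR), where 0%, 0% and 0.0175% of all genes were called. At an unadjusted p under 0.05 there were 0, 1 and 1 members against 744, 1323 and 1597 genes, and DESeq2 also called 0, 0 and 0 members. The one member was Tlr1. Its log2 LPS response in MIA minus that in controls was negative in striatum (-0.59 ± 0.21, 95% interval -1.02 to -0.15, adjusted p = 0.626) and in the mean of both regions (-0.42 ± 0.14, -0.72 to -0.12, 0.348). In cortex the value for Tlr1 was -0.25 ± 0.20. Tlr2 had -0.44 ± 0.22 in cortex and 0.01 ± 0.23 in striatum, and Cd14 a mean of -0.08 ± 0.24 (-0.57 to 0.42, adjusted p = 0.97).

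No member was called between cortex and striatum. In saline 0 of 10 members were called between regions in control or MIA offspring (edgeR), against 0.502% and 0.0817% of all genes. At an unadjusted p under 0.05 there was 1 member in each, against 2030 and 783 genes, and DESeq2 called 0 in each. In controls it was Ly96, lower in striatum (-0.39 ± 0.18, 95% interval -0.77 to -0.02, though its libraries overlapped), and in MIA offspring Tlr2, lower in striatum (-0.33 ± 0.16, -0.66 to -0.004). Control striatum libraries lay below control cortex libraries without overlap for Tlr4 (-0.36 ± 0.25), Tlr6 (-0.32 ± 0.23) and Tlr7 (-0.25 ± 0.26), 3 of 10 against 22.4% of all genes, and in MIA offspring this held for Tlr2 alone, 1 of 10 against 10.3%. In control saline, several marker sums also differed by region without overlap. The microglial sum was 28322 to 33381 CPM in striatum against 35033 to 39255 CPM in cortex. The border macrophage sum was 358 to 456 against 667 to 1025 CPM. The oligodendrocyte sum was higher in striatum (1121 to 5330 against 171 to 341 CPM). So was the endothelial and pericyte sum (1133 to 2409 against 502 to 793 CPM). The part of these cells in the receptor values was not tested. The LPS response differed between regions for 0 members in control and in MIA offspring (0% and 0% of all genes, edgeR; also 0 and 0 at an unadjusted p under 0.05, against 946 and 478 genes, and 0 and 0 by DESeq2). The widest of these differences was Tlr2 in MIA offspring, whose response was larger in striatum by 0.46 ± 0.23 on the log2 scale (-0.03 to 0.95).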

How the data were processed

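The deposited table holds expected counts per gene and library. The authors made these expected counts with STAR and RSEM, and DESeq2 was also used, per the submitters' processing notes; versions and genome build are not given in the sources used here. Libraries were Smart-Seq2-type oligo-dT cDNA, per the labels' protocols. Of all values, 6.92% were not whole, and expected counts were rounded before testing. Of 55487 identifiers, 55141 matched a symbol by the identifier without its version suffix. Groups came from the labels. The labels do not say whether replicates are separate animals, so the p-values rest only on the variation among these libraries, which may be technical. They also do not say whether same-numbered cortex and striatum libraries share an animal. The fit took these as independent, also for the mean LPS effect over the groups.

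Genes were kept by filterByExpr (minimum count 10, total 15; 17139 genes), scaled by TMM and fitted with edgeR 4.0.16 in R 4.3.3 by the quasi-likelihood method, with 1 term per group over 23 libraries (15 residual degrees of freedom). Two-sided p-values were adjusted by Benjamini and Hochberg within each of 16 comparisons over all genes. The SE is that implied by the F statistic. Levels are CPM, and log2 CPM used a prior count of 2. The code was tested on simulated data. DESeq2 1.42.0, other scaling, no filter, fewer samples, a replicate block and leaving out each library were alternatives. The text names the 10 members in every comparison, up to 8 called genes per pathway list with the smallest adjusted p, and for each member the 3 genes with the highest r, passing over predicted names. Some of these genes and 1 microglial marker are not reported here. Members and lists were chosen with earlier results of these data known. Promoters are from RefSeq, build GRCm38.p6, and none is printed for the other members.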

Additional observations from a re-analysis of the deposited data

Results flagged for a closer look

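In MIA striatum LPS replicate 3, the library set aside by the submitters, 3 members stood above all 12 saline libraries. The share of all genes above the saline libraries was not computed for it, nor were its marker sums. Tlr1 was at 60.4 CPM there, against a highest saline value of 55.4 CPM and 84.9 to 87.8 CPM in the other 2 libraries of its group. Tlr2 was at 479 CPM, against at most 396 CPM with saline and 771 to 789 CPM in its group. Cd14 was at 3409 CPM, against at most 1009 CPM with saline and 2446 to 3453 CPM in its group. Groups of 3 or fewer libraries were not tested for outlying values, and no difference of LPS effects between groups was called for a member.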

How the results depend on the processing

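Over 30 settings, 160 pairs of member and comparison gave 4680 alternative values. A change of sign was counted as a reversal only where the gene was called in one of the fits, and 0 were reversed, 15 lost a call, 18 gained one and 4647 kept their side of the threshold. The LPS calls of Cd14, Tlr2 and Tlr1 held in all alternatives in all 4 groups, while those of Ly96 in 2 groups and of Tlr9 in single groups changed with the setting, at the values given in the report and, for the replicate block, here. The number of members called for the MIA effect with LPS went from 0 to 1 with DESeq2 in cortex and from 0 to 1 in striatum (Tlr1), and ran from 0 to 1 in cortex when each library was left out. No scaling moved the median of all genes by over 0.1 on the log2 scale.

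Over all genes, DESeq2 called more than edgeR where few were called: 2 against 0 and 1 against 0 for the MIA effect in cortex and striatum with saline, 41 against 0 and 195 against 25 with LPS, 1 against 0, 34 against 0 and 137 against 3 for the interaction in cortex, striatum and their mean, 557 against 86 and 86 against 14 between regions in control and MIA, and 10 against 0 and 6 against 0 for LPS by region.

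Replicate numbers did not establish pairs. Same-numbered cortex and striatum libraries had a median correlation of deviations of 0.378 (-0.331 to 0.676, 9 of 11 over 0.1). Differently numbered ones of the same prenatal group and treatment had a median of -0.238 (-0.644 to 0.52, 5 of 22 over 0.1). For pairs from other groups the medians were 0.182 with the same number and -0.062 with different numbers. Of 23 libraries, 16 correlated best with their own number. The main fit took all libraries as independent, and whether same-numbered libraries share an animal was not tested. With the number as a replicate block, 6 members were called in the mean LPS effect, with Tlr13 added (0.34, adjusted p = 0.0251), and 5 in MIA cortex and in MIA striatum, with Tlr9 added (-0.94, 0.0412; -1.14, 0.0364). Over all genes the replicate block gave 13, 42, 36 and 167 calls for the MIA effect in cortex and striatum with LPS, the mean interaction and the control regional difference, against 0, 25, 3 and 86, and the block within prenatal group and treatment gave 627 and 78 regional calls in control and MIA, and 2 for LPS by region in control against 0. The first block called no member in the regional, MIA or interaction comparisons, and the second, which was run only for the 4 regional comparisons, called none there.

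With 2 or 3 libraries a group, the SE of the LPS effect within a group ran up to 0.38, for Tlr9, whose levels were the lowest of the members.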

Other observations

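In the library set aside, 6 of the 10 members were below the lowest of the 23 libraries used. The share of all genes below that range was not computed, so the low values are not shown to be particular to these receptors. Tlr3 was at 13.8 CPM (lowest library used 55.8 CPM), Tlr4 at 19.01 (71.3), Tlr6 at 29.7 (33.7), Tlr7 at 47.1 (240.5), Tlr9 at 4.10 (5.09) and Tlr13 at 49.5 CPM (198 CPM). Ly96, at 21.8 CPM, lay within the range of the saline libraries, which ran from 17.4 to 33.4 CPM. The endosomal receptors and Tlr4 were therefore low in the same library in which Cd14 stood at the level of its group.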
